A study of Homo sapiens with 12 samples.

Results

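BEX1, FEZ1, NPTX2, VSTM2L, RBFOX3 and PRICKLE1 are 6 genes best known from neurons or neural development, and all 6 were found in polysomes of triple-negative breast cancer (TNBC) cells. They are 6 of 24559 gene symbols in the deposited table and 6 of the 16538 that passed the filter on low counts. They were chosen by their measured values, since each differed strongly between TRMT112 knockdown (KD) and empty vector (EV) cells in at least 1 line. Their KD values are therefore given as a description, without a test.

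The study sequenced RNA bound to several ribosomes (polysomes) in 6 groups of 2 libraries, 12 in all. The human TNBC lines MDA-MB-231 and SUM159 received a GIPZ plasmid encoding a TRMT112 shRNA (KD) or its non-silencing GIPZ counterpart, labelled EV, followed by puromycin selection. BT549, a further established TNBC line, received a TRMT112 open reading frame (OE) or the pReceiver-M02 empty vector (EV), followed by G418 selection. All cells were transfected with Lipofectamine and treated with cycloheximide before lysis, in EV, KD and OE alike. TRMT112 is the common cofactor that stabilizes several methyltransferases acting on rRNA, tRNA and proteins. Whether each modified line was 1 clone or a pool, which promoter drove the transgene, and whether the 2 libraries of a group came from separate cultures are not given in the sources used here. A p-value then measures only the spread between these libraries, which may be technical. A polysome count depends on both the amount of an mRNA and its ribosome loading, which cannot be told apart here. In bulk RNA, fewer cells expressing a gene and less RNA per cell cannot be told apart either.

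As background, BEX1 is a small adaptor protein, abundant in neurons, that binds the neurotrophin receptor NGFR. FEZ1 links cargo to the kinesin-1 motor and takes part in axon outgrowth. NPTX2 is a secreted pentraxin that clusters AMPA-type glutamate receptors at excitatory synapses. VSTM2L is a secreted immunoglobulin-domain protein described in brain. RBFOX3, the antigen known as NeuN, is a splicing regulator widely used as a marker of mature neurons. PRICKLE1 is a cytoplasmic component of planar cell polarity, the Wnt pathway that orients cells within a tissue. In many other tissues such neuronal genes are kept silent by the repressor REST, which binds the RE1 element.

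Sequence upstream of the start is shown for the 4 genes with a single RefSeq window at 1 start. Each window of 300 bases runs from 250 before to 50 after the start on GRCh38.p14, and capitals mark TGACG (or its complement CGTCA), the first part of the cyclic AMP response element, and CAGCACC, part of the RE1 element.
BEX1, minus strand of chrX:103064122-103064421: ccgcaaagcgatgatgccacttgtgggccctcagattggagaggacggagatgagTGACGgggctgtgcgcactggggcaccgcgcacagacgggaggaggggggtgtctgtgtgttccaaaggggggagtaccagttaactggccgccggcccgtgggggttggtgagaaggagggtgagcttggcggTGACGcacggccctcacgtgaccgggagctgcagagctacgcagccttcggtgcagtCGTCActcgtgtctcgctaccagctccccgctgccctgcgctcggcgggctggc
FEZ1, minus strand of chr11:125496216-125496515: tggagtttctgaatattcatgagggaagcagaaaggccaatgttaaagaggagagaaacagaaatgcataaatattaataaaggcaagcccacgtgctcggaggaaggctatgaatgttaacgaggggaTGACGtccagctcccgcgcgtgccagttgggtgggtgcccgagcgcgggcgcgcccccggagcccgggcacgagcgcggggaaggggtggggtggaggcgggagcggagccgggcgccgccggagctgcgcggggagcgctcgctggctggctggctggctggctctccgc
NPTX2, plus strand of chr7:98617035-98617334: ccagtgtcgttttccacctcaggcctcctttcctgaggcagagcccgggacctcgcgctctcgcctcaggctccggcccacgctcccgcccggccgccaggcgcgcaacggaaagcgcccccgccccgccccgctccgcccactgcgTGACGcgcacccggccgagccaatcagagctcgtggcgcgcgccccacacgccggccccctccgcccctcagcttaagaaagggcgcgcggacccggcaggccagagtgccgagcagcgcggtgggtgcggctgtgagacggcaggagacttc
PRICKLE1, minus strand of chr12:42483566-42483865: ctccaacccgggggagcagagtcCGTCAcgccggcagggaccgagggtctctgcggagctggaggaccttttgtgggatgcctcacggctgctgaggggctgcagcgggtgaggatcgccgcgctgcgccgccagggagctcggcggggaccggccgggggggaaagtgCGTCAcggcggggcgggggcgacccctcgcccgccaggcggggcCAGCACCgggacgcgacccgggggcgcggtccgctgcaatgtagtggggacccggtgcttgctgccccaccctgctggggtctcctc
TGACG, a motif chosen after the windows were read, was present at 3 places in BEX1, 1 in FEZ1, 1 in NPTX2 and 2 in PRICKLE1 on either strand, and 24.6% of all 35116 windows hold it. The full element TGACGTCA, which contains TGACG and is held by 1.85% of windows, was in none of the 4. CAGCACC was found in PRICKLE1 and in 7.75% of all windows, whereas the longer TTCAGCACC (0.376% of windows), GGACAGC (6.03%), its shorter form GGACAG (20.5%) and TATAAA (11.5%) were in none of these 4. The windows held 25, 28, 39 and 33 CpG dinucleotides in the same order, against a median of 14 over all windows. The window of PRICKLE1 lies 106 kb downstream of the start of its canonical transcript, at another group of annotated starts. RBFOX3 has 12 windows, 2 of them about 47.9 kb upstream of its canonical start and the farthest downstream 186 kb past it, and VSTM2L was not matched. Such matches are descriptions of letters, not of bound sites.

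TRMT112 was lower in both KD lines and higher in BT549 OE. Its counts were 4408 and 4312 in MDA-MB-231 EV against 1883 and 1746 in KD, 6274 and 6531 in SUM159 EV against 3877 and 4277 in KD, and 2809 and 2788 in BT549 EV against 3870 and 3816 in OE. The groups did not overlap in any line. The log2 fold changes were -1.23 ± 0.04 (SE), -0.76 ± 0.04 and 0.48 ± 0.04, with adjusted p = 5.1e-16, 1.76e-14 and 1.48e-10 (edgeR quasi-likelihood test, Benjamini-Hochberg over all genes tested, n = 2 per group). Library totals lay between 22954226 and 27434677 expected counts. The lines carried a mesenchymal profile, with VIM, FN1, CDH2, ZEB1 and SNAI2 summing to 31940 to 33107 normalized counts in MDA-MB-231 and 54665 to 56677 in SUM159. In BT549 that sum was 53230 to 53484 in EV and 26409 to 27247 in OE. The keratins, EPCAM and CDH1 summed to at least 9929 in MDA-MB-231 and SUM159, and in BT549 to 88.3 to 98.2 in EV and 41.7 to 43.0 in OE. As a neuronal identity check, 10 of 14 neuron markers were in the table, and TUBB3, a tubulin also abundant in many tumor lines, made up most of their sum. That sum was 2921 to 3044 in MDA-MB-231 EV and 3709 to 3796 in KD, 4744 to 4771 in SUM159 EV and 7642 to 8017 in KD, and 31890 to 32575 in BT549 EV and 17500 to 18068 in OE. The deposited counts hold no transcript at 0 in every BT549 library, so a marker without BT549 counts could not be among the 10. The number of low markers was thus held down in BT549, and the lines cannot be compared by it. Of the 10 markers, 4 and 5 stood at 3 counts or fewer in MDA-MB-231 EV and KD, 3 in either SUM159 group, 1 in BT549 EV and 0 in BT549 OE. Whether these shifts have a part in the values of the 6 genes was not tested.

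**Figure D1:**
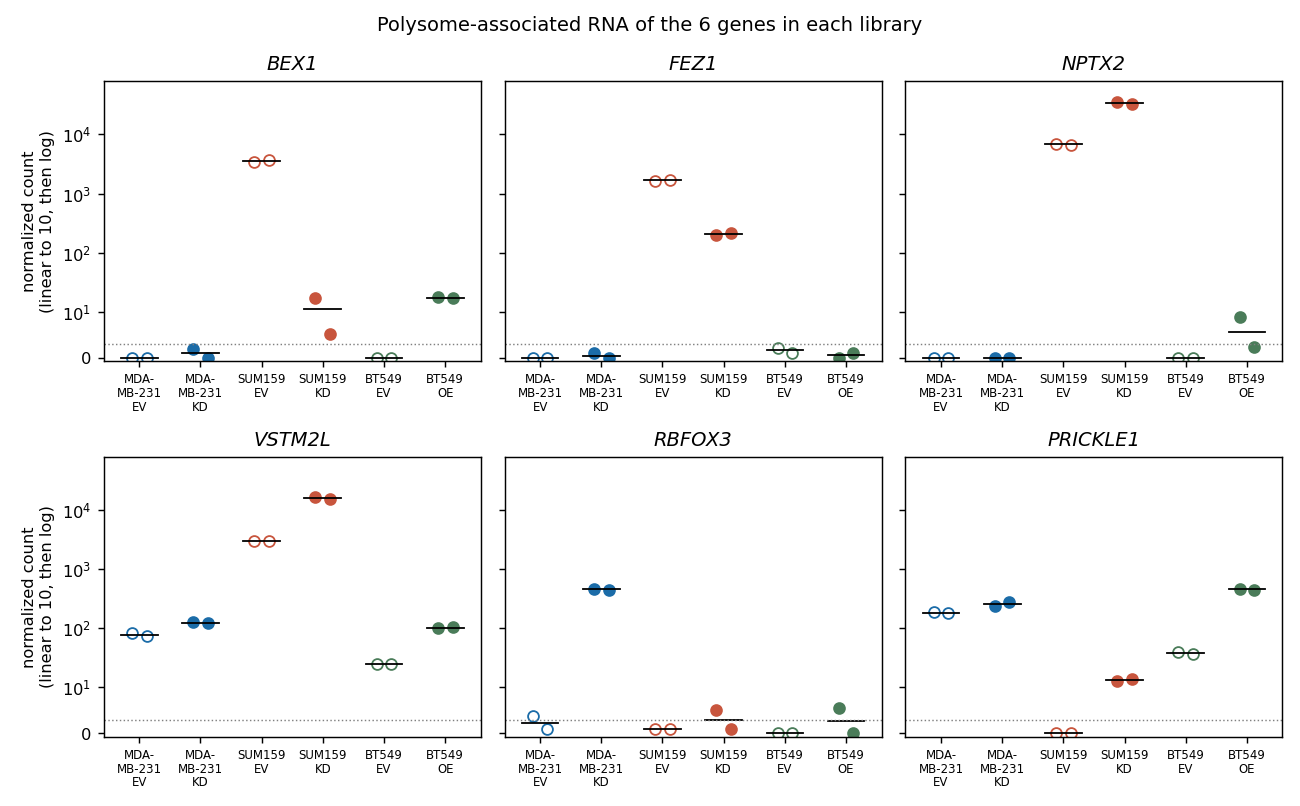
Normalized counts (y axis, linear up to 10 and logarithmic above) of each gene in the 12 libraries, by group (x axis). Open points are EV, filled points KD or OE, bars group means of 2 libraries, and the dotted line marks 3 counts. BEX1, FEZ1 and NPTX2 are high in SUM159 only, RBFOX3 in MDA-MB-231 KD only, and VSTM2L and PRICKLE1 appear in all 3 lines.

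The 2 genes that were lower in KD were BEX1 and FEZ1, and both were abundant in SUM159 EV only. BEX1 (ENSG00000133169, chrX:103062651-103064171, minus strand, GRCh38) had 3416 and 3714 counts in the SUM159 EV libraries and 17 and 6 in KD. MDA-MB-231 held 0 and 0 counts in EV and 2 and 0 in KD. BT549 held 0 and 0 in EV and 16 and 15 in OE. Thus only SUM159 EV carried the mRNA at a high level, and the SUM159 KD libraries came down to the range of BT549 OE. In normalized counts (expected counts scaled by TMM to a common library size) the SUM159 mean went from 3578 ± 202 (SD, n = 2) to 11.1 ± 8.42, which is 322-fold lower with a 95% counting interval of 223 to 529. This placed BEX1 8 from the lowest of the 16538 fitted log2 fold changes. Counting intervals and floors cover counting error only, because the reads carry no molecular identifiers.

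BEX1 belongs to a family of similar small genes on chromosome X, and reads can be shared between close copies. BEX2, its nearest paralog, had no count in any SUM159 library and a mean of 151 and 145 in MDA-MB-231 EV and KD, where BEX1 was at 0 to 2 counts, so the 2 genes were never abundant in the same library. BEX4 was at 1 count or fewer everywhere. Most tested BEX and TCEAL genes around BEX1 were higher in SUM159 KD. TCEAL genes encode small proteins related to an elongation factor, and some of them, including TCEAL3, have near-identical copies that may share reads. TCEAL4 rose from 3123 ± 28.2 to 7730 ± 357 (log2 fold change 1.31 ± 0.04 SE, adjusted p = 6.47e-19, edgeR) and TCEAL3 from 984 ± 76.6 to 2571 ± 48.0 (1.39 ± 0.05, adjusted p = 1.78e-16, edgeR). TCEAL9 rose by 1.15 ± 0.06 on the log2 scale (adjusted p = 6.77e-14, edgeR).

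Of the 9 tested genes in the BEX and TCEAL list, 6 rose and 1 fell in SUM159 KD, where 28.6% of all genes tested rose and 31.4% fell. The 1 gene that fell was NGFR, the receptor that BEX1 binds, from 268 ± 12.7 to 43.6 ± 9.06 (log2 fold change -2.61 ± 0.22, adjusted p = 2.48e-10, edgeR). In MDA-MB-231 KD 4 of the 9 rose, TCEAL1, TCEAL3, TCEAL8 and TCEAL9, where 21.2% of all genes rose and 16.5% fell. With counts scaled by library size only, TCEAL1 alone of these 4 was called there and BEX3 was called lower, while 14.3% of all genes were then called higher and 24.7% lower. Their log2 fold changes lay between 0.14 and 0.36, and those of the same 4 genes in SUM159 between 0.85 and 1.79. In BT549 OE 2 rose and 4 fell, against 35.6% and 35% of all genes. TCEAL1, TCEAL3 and TCEAL4 fell there by 1.86, 1.92 and 1.72 on the log2 scale, with adjusted p of at most 4.21e-15 (edgeR). The 2 that rose, TCEAL8 and TCEAL9, stayed low, at 15.7 ± 6.55 and 23.5 ± 5.10 normalized counts in OE.

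**Figure D2:**
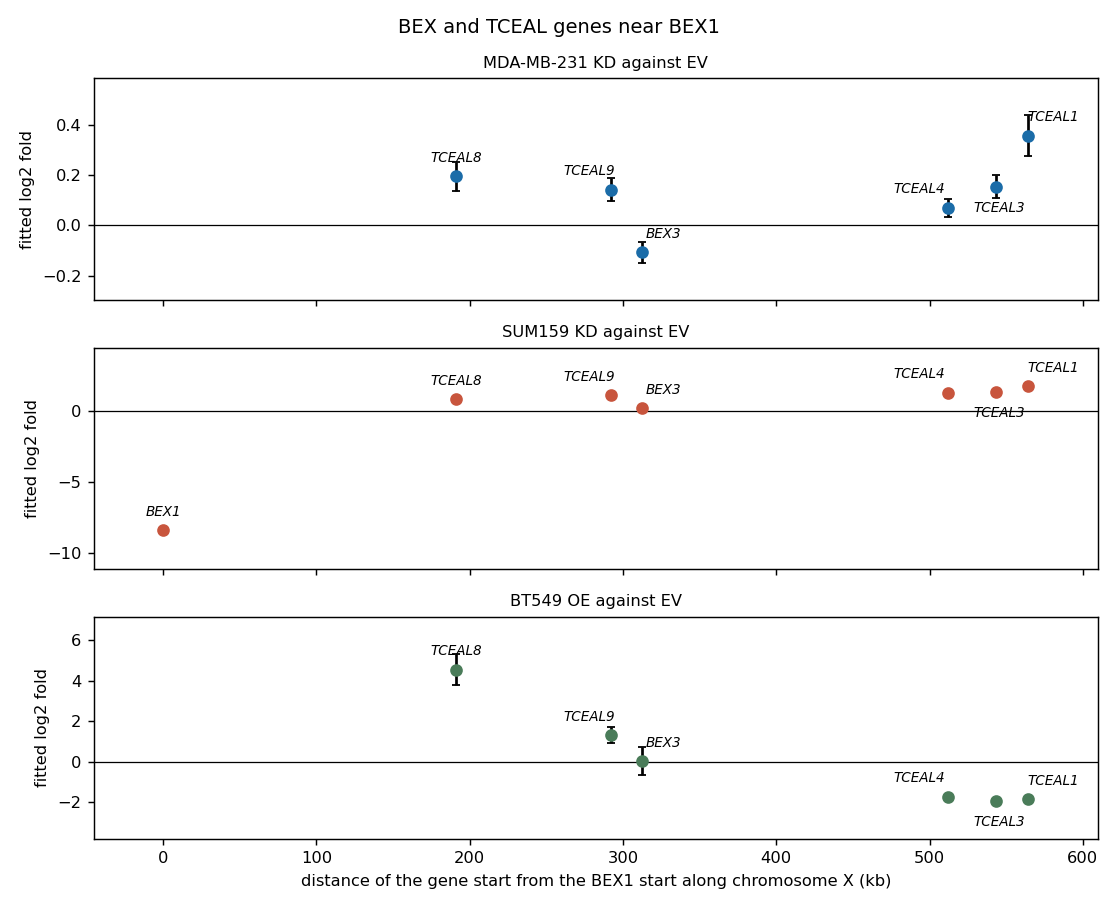
Fitted log2 fold change (y axis, a separate scale in each panel) of BEX and TCEAL genes by the distance of their start from that of BEX1 on chromosome X (x axis, kb), with bars of 1 SE where they exceed the point. BEX1 is drawn in SUM159, where it lies far below 0 while its neighbours lie above 0, and BEX2, which is near 0 counts outside MDA-MB-231, and BEX5 are not drawn.

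FEZ1 (ENSG00000149557, chr11:125442881-125592568, minus strand) had 1630 and 1686 counts in SUM159 EV and 197 and 249 in KD. In MDA-MB-231 the counts were 0 and 0 in EV and 1 and 0 in KD, and in BT549 they were 2 and 1 in EV and 0 and 1 in OE. FEZ1 was thus read in quantity in SUM159 only, and its 2 groups there did not overlap. The SUM159 mean was 1664 ± 35.1 normalized counts in EV and 206 ± 11.8 in KD, 8.07-fold lower (counting interval 7.28 to 8.90). Unlike BEX1, FEZ1 kept a clear signal after KD. Per transcript length, that is, with counts divided by transcript length and rescaled to a fixed library sum, BEX1 stood at 339 in SUM159 EV, above FEZ1 at 113, and in KD the order was the reverse, with BEX1 at 0.966 and FEZ1 at 13.2.

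The transcripts of FEZ1 were read in part only. The table used here has rows for 6 of its 17 annotated transcripts. It has no row for the canonical full-length mRNA, so any counts of that mRNA are not included here. Of all FEZ1 counts, 71.7% were assigned to FEZ1-203 and FEZ1-213, annotated as retained-intron transcripts, and 28.3% to protein-coding models. In SUM159 EV the 2 retained-intron transcripts took 45.1% and 30.2% and the short coding transcript FEZ1-202 took 21.1%. In KD the shares were 27.6%, 17.9% and 51.5%. Thus FEZ1-202 became the largest part as the total came down. Such shares are estimates, since reads common to several transcripts were divided between them. Reads of the transcripts without a row may have been given to others or may be missing. The deposited counts hold no transcript at 0 in every BT549 library, and FEZ1 was close to absent there. The FEZ1 totals, fold and shares thus cover only the rows present, and what the absent transcripts would add was not tested.

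FEZ2, the widely expressed paralog, was abundant in every group. It stood at 1595 ± 5.86 in SUM159 EV and 1775 ± 1.12 in KD and rose slightly (log2 fold change 0.15 ± 0.04, adjusted p = 0.00427, edgeR), and fell by 0.16 on that scale in MDA-MB-231 (adjusted p = 0.00383, edgeR). In the list of FEZ2, kinesin-1 chains and partners, 2 of 8 rose and 4 fell in either KD line, where 21.2% and 16.5% of all genes did so in MDA-MB-231 and 28.6% and 31.4% in SUM159. In BT549 2 rose and 5 fell, against 35.6% and 35%. With library size only, the 2 higher calls in MDA-MB-231 were lost, and 14.3% of all genes were then called higher and 24.7% lower. KIF5B, the ubiquitous kinesin-1 motor, fell from 4846 ± 23.4 to 2993 ± 51.4 in SUM159 KD (-0.70 ± 0.03, adjusted p = 1.87e-14, edgeR). KLC1, a light chain, fell in MDA-MB-231 (-0.25 ± 0.04), SUM159 (-0.64 ± 0.04) and BT549 OE (-1.48 ± 0.04), with adjusted p of 4.56e-05, 4.85e-12 and 9.43e-19 (edgeR). KIF5C, the neuron-enriched motor, was at 7273 ± 231 in BT549 EV and 16.7 ± 1.32 in OE (adjusted p = 7.13e-24, edgeR).

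NPTX2 and VSTM2L, the 2 secreted proteins, were already abundant in SUM159 EV and higher in KD. NPTX2 (ENSG00000106236, chr7:98617285-98629869, plus strand) had 6776 and 6721 counts in SUM159 EV and 35028 and 38323 in KD. It was at 0 in all 4 MDA-MB-231 libraries and in both BT549 EV libraries, and at 8 and 2 in BT549 OE. The groups did not overlap. The mean went from 6774 ± 57.9 to 34110 ± 1528, which is 5.04-fold higher (counting interval 4.93 to 5.12). A single annotated transcript, the only 1 of its 2 with a row in the deposited counts, carried all counts. In SUM159 KD NPTX2 took 0.145% of the counts matched to genes, against 0.0295% in EV, and its length-scaled level went from rank 1054 to rank 192 among all symbols.

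Among the other pentraxins, NPTX1 stood at 385 ± 47.9 in SUM159 EV and 348 ± 6.92 in KD and did not pass the test (adjusted p = 0.246, edgeR). NPTXR, the membrane-bound pentraxin that joins NPTX1 and NPTX2 at synapses, rose in MDA-MB-231 KD from 179 ± 9.64 to 364 ± 2.52 (log2 fold change 1.03 ± 0.11, adjusted p = 1.5e-07, edgeR), a line without any NPTX2 count. In BT549 OE NPTXR rose more, from 31.8 ± 1.30 to 545 ± 36.5 (4.09 ± 0.15, adjusted p = 4.66e-17, edgeR), while NPTX1 fell (-1.17 ± 0.08, adjusted p = 7.46e-12, edgeR). PTX3, a pentraxin of innate immunity, fell in SUM159 KD from 486 ± 2.20 to 71.4 ± 8.38 (-2.77 ± 0.12, adjusted p = 1.66e-15, edgeR). Among 5 tested pentraxin and AMPA receptor genes, 2 fell in SUM159 KD, 2 rose and 1 fell in MDA-MB-231 KD, and 2 rose and 2 fell in BT549 OE. Of all genes 31.4% fell in SUM159 KD, 21.2% rose and 16.5% fell in MDA-MB-231 KD, and 35.6% rose and 35% fell in BT549 OE.

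VSTM2L (ENSG00000132821, chr20:37903111-37945350, plus strand) had 2960 and 3026 counts in SUM159 EV and 16461 and 18064 in KD. The MDA-MB-231 libraries held 89 and 81 in EV and 136 and 128 in KD, and the BT549 libraries 23 each in EV, against 92 and 93 in OE. In each line both modified libraries lay above both EV libraries. The SUM159 mean was 3004 ± 38.5 in EV and 16053 ± 685 in KD, 5.34-fold higher (counting interval 5.19 to 5.48), and the MDA-MB-231 mean was 78.6 ± 6.88 and 124.9 ± 2.88, 1.59-fold higher (1.31 to 1.94). The fold of VSTM2L in SUM159 was close to that of NPTX2 and larger than its own in MDA-MB-231. Its length-scaled level in SUM159 KD was 664 against 870 for NPTX2, ranks 265 and 192. VSTM2L-202, the canonical transcript, carried 91.2% of the counts. Of its relatives, 2 VSTM genes were tested, and 1 of them, VSTM4, rose in BT549 OE (edgeR), where 35.6% of all genes rose. VSTM4 was at 0 in BT549 EV, so it could appear in the deposited counts only with counts in OE, and that direction was fixed.

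RBFOX3 (ENSG00000167281, chr17:79089345-79611051, minus strand) was the gene with the largest difference in MDA-MB-231 among the 6. It had 4 and 1 counts in MDA-MB-231 EV and 491 and 472 in KD. SUM159 held 1 in either EV library and 5 and 1 in KD, and BT549 held 0 in either EV library and 5 and 0 in OE. RBFOX3 was therefore read in quantity in MDA-MB-231 KD alone, where it ranked 3 from the highest of the 16538 fitted changes. The mean was 2.33 ± 2.01 in EV and 456 ± 3.69 in KD, 196-fold higher with a wide counting interval of 84.3 to 609. In SUM159 and BT549 the groups overlapped and no group mean stood above the floor of 3 counts per library, so no fold is given.

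Nearly all RBFOX3 counts were assigned to a transcript model that lacks the start of the gene. Only 5 of the 14 annotated transcripts of RBFOX3 have a row in the deposited counts. Reads of the transcripts without a row may have been given to others or may be missing. The deposited counts hold no transcript at 0 in every BT549 library, and RBFOX3 was close to absent there. The RBFOX3 totals and the shares below thus cover only the rows present. In MDA-MB-231 KD 90.9% went to RBFOX3-213 and 1.59% to the canonical RBFOX3-214. The model of RBFOX3-213 begins 495 kb downstream of the canonical start, inside exon 5 of the 15 exons of RBFOX3-214, and carries the annotation tags for an incomplete 5′ end and coding start. It has none of the 4 upstream exons (512 bases) nor the first 135 coding bases. The coding part of exon 5 is shown because it holds both the canonical start codon and the start of RBFOX3-213, with capitals for the 87 bases that RBFOX3-213 contains.
RBFOX3 exon 5 coding part, minus strand of chr17:79115494-79115715: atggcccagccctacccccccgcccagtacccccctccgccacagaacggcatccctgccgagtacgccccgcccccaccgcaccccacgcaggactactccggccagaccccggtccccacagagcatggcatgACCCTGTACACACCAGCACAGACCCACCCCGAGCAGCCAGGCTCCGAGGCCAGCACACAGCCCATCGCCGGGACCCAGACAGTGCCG
The 12 RefSeq windows of RBFOX3 all lie upstream of this exon. Whether transcription begins in or near it was not tested, and the table of estimated counts does not locate reads within a transcript.

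RBFOX2, the paralog expressed in most tissues, was at 4849 ± 127 in MDA-MB-231 EV and 5687 ± 32.6 in KD and rose little (log2 fold change 0.23 ± 0.03, adjusted p = 4.03e-06, edgeR). Of 13 tested RNA-binding proteins that regulate neuronal splicing, 5 rose and 2 fell in MDA-MB-231 KD (38.5% and 15.4%, against 21.2% and 16.5% of all genes). QKI rose from 3380 ± 150 to 4621 ± 26.6 (0.45 ± 0.04, adjusted p = 3.63e-09, edgeR) and MBNL2 from 2528 ± 42.8 to 3509 ± 24.6 (0.47 ± 0.05, adjusted p = 1.96e-08, edgeR). PTBP1, the repressor of neuronal exons, fell by 0.23 on the log2 scale there (adjusted p = 2.19e-06, edgeR) and by 1.05 in SUM159 KD (adjusted p = 5.21e-18, edgeR). QKI and MBNL2 instead fell in SUM159 KD (-0.44 ± 0.04 and -1.33 ± 0.05, adjusted p = 1.56e-09 and 2.87e-16, edgeR). In BT549 OE MBNL2 fell (-1.24 ± 0.06, adjusted p = 3.37e-15, edgeR) and QKI rose (0.16 ± 0.04, adjusted p = 0.000335, edgeR). In SUM159 KD 3 of the 13 rose and 4 fell (23.1% and 30.8%, against 28.6% and 31.4%), and in BT549 OE 6 rose and 5 fell (46.2% and 38.5%, against 35.6% and 35%).

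**Figure D3:**
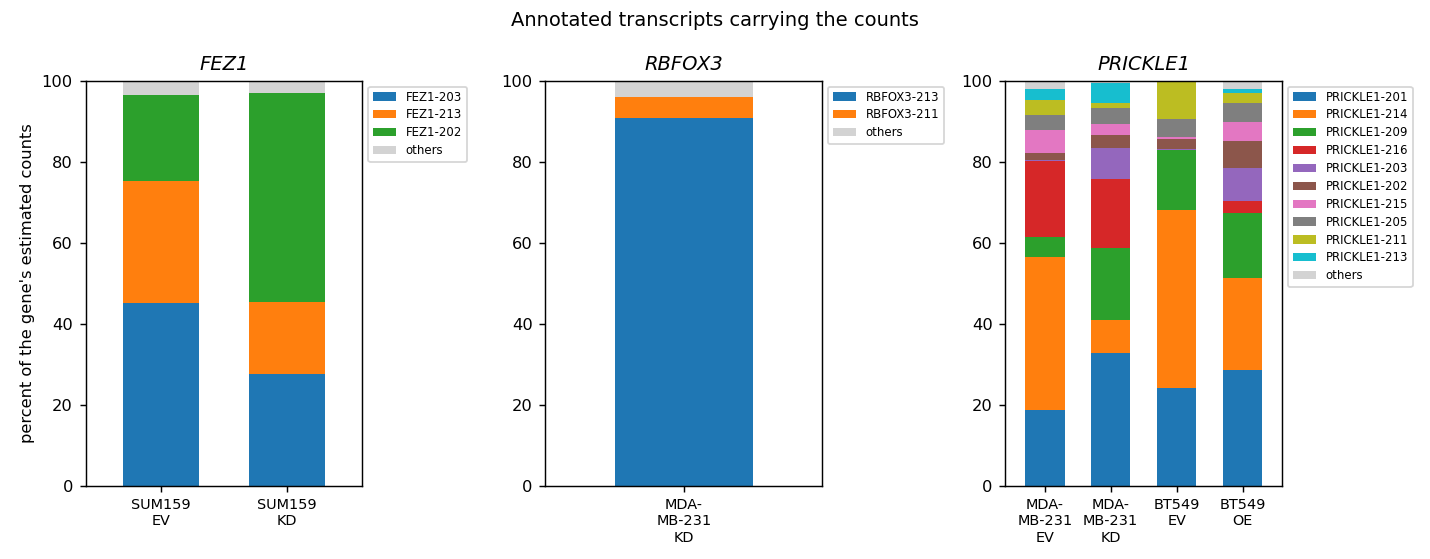
Share of the gene's estimated counts (y axis, percent) assigned to each annotated transcript, for FEZ1, RBFOX3 and PRICKLE1 in groups with at least 50 counts (x axis). FEZ1-202 has 21.1% in SUM159 EV and 51.5% in KD, RBFOX3-213 has 90.9% in MDA-MB-231 KD, and PRICKLE1 is split over many transcripts.

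PRICKLE1 (ENSG00000139174, chr12:42456757-42590355, minus strand) was present in MDA-MB-231 and BT549 and close to absent in SUM159. It had 199 and 197 counts in MDA-MB-231 EV and 257 and 294 in KD. In SUM159 it had 0 and 0 in EV and 13 and 16 in KD, and in BT549 36 and 33 in EV and 420 and 398 in OE. Every KD or OE library lay above both EV libraries of its line. The MDA-MB-231 mean went from 183 ± 5.15 to 261 ± 29.9, 1.43-fold higher (counting interval 1.25 to 1.63), and the SUM159 KD mean of 13.4 ± 0.516 was at least 4.46-fold above the floor of 3 counts per library. Its level in SUM159 KD stayed below that in every other line.

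PRICKLE1 counts were split over 11 transcripts with more than 1% of the total each. Transcripts with a start more than 100 kb downstream of the canonical one, near the RefSeq window shown above, took 41.8% of the counts in MDA-MB-231 EV and 55.5% in KD, and 29.5% in BT549 EV and 41.7% in OE. The rest came from the canonical start region. Both groups of starts carried counts, by this estimate, in each line with enough reads to show it. PPHLN1, on the opposite strand, overlaps the gene, and the strand setting of the counting is not given in the sources used here. Whether reads from the shared stretch were given to PRICKLE1 was not tested. In SUM159 EV PPHLN1 had a mean of 1328 normalized counts and PRICKLE1 had 0 counts in both libraries.

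PRICKLE2 and PRICKLE3, its paralogs, fell in SUM159 KD, PRICKLE3 only under some scalings. PRICKLE2 fell from 186 ± 9.42 to 121 ± 6.57 (log2 fold change -0.61 ± 0.13, adjusted p = 0.000391, edgeR), and PRICKLE3 from 1184 ± 6.14 to 1068 ± 11.8 (-0.15 ± 0.06, adjusted p = 0.0366, edgeR, but 0.186 with RLE size factors). Both also fell in BT549 OE (-1.28 ± 0.09 and -2.00 ± 0.07, adjusted p = 3.83e-12 and 3.78e-17, edgeR). Of 20 tested planar cell polarity genes, 5 rose and 3 fell in MDA-MB-231 KD, 8 rose and 7 fell in SUM159 KD, and 7 rose and 9 fell in BT549 OE. As shares these were 25% and 15%, 40% and 35%, and 35% and 45%, beside 21.2% and 16.5%, 28.6% and 31.4%, and 35.6% and 35% of all genes, so the MDA-MB-231 shares lay near those of all genes. ROR1, a receptor for noncanonical Wnt ligands, rose in MDA-MB-231 KD from 42.0 ± 3.69 to 156 ± 19.2 (1.89 ± 0.17, adjusted p = 4.91e-09, edgeR), and CELSR1, an adhesion receptor of the pathway, from 808 ± 22.2 to 1352 ± 14.7 (0.74 ± 0.06, adjusted p = 1.37e-09, edgeR). VANGL1, a transmembrane partner of PRICKLE proteins, rose by 0.57 ± 0.04 in SUM159 KD (adjusted p = 3.18e-11, edgeR) and fell by 1.75 in BT549 OE (adjusted p = 6.03e-21, edgeR). PTK7 and SCRIB fell in SUM159 KD (-0.85 ± 0.04 and -0.59 ± 0.04, adjusted p = 4e-14 and 1.82e-12, edgeR). CELSR1 fell in BT549 OE (-3.40 ± 0.09, adjusted p = 1.53e-19, edgeR).

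**Figure D4:**
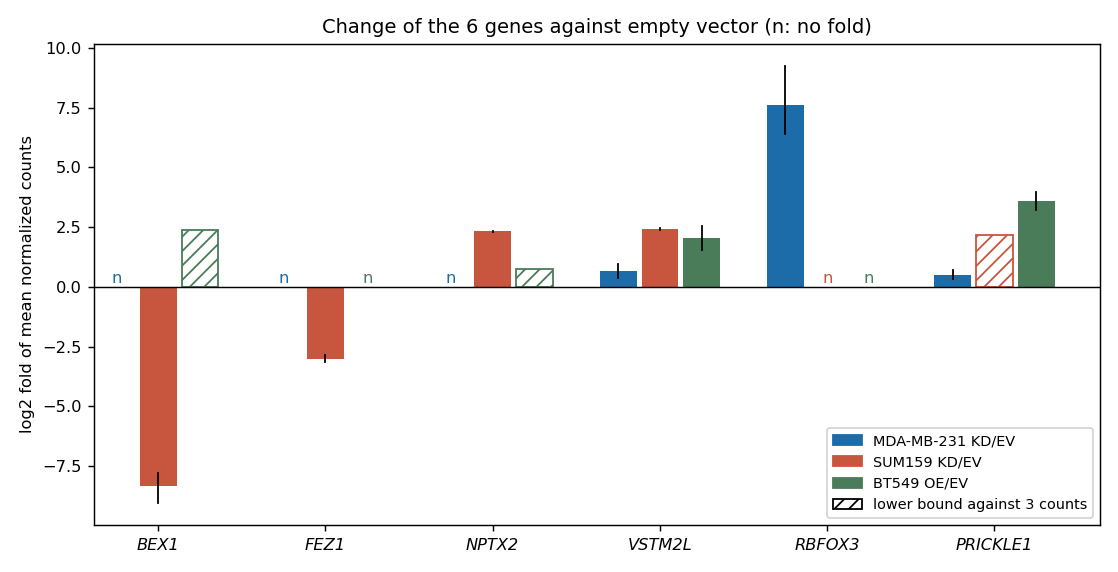
Log2 fold of the mean normalized counts against EV (y axis) for each gene (x axis) and line. Filled bars are ratios with 95% counting intervals (black lines), hatched bars are lower bounds against 3 counts per library, and n marks gene and line pairs with no fold. BEX1 and FEZ1 are the genes below 0, both in SUM159.

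The comparison of BT549 OE with EV did not serve to choose the genes, although the values of all groups were known when they were chosen. The deposited table holds 0 transcripts that are at 0 in all 4 BT549 libraries, so BEX1, NPTX2 and RBFOX3, at 0 in both EV libraries, could appear in it only with counts in OE, and a higher value in OE was fixed for them. That leaves VSTM2L and PRICKLE1 free to differ either way. FEZ1, at 2 and 1 counts in BT549 EV, was too low there for a fall to be called. Both VSTM2L and PRICKLE1 rose, in a contrast where 35.6% of all genes tested rose and 35% fell. PRICKLE1 rose from 37.8 ± 2.03 to 456 ± 10.3, 12.1-fold (counting interval 9.42 to 15.6, log2 fold change 3.59, adjusted p = 7.14e-15, edgeR), and VSTM2L from 25.2 ± 0.201 to 103 ± 2.39, 4.09-fold (2.95 to 5.78, log2 fold change 2.03, adjusted p = 2.18e-09, edgeR). BEX1 went from 0 to 17.3 ± 0.521, at least 5.25-fold (adjusted p = 3.63e-05, edgeR). NPTX2 went from 0 to 5.54 ± 4.65, at least 1.68-fold on the mean (adjusted p = 0.00339, edgeR), with 1 of the OE libraries itself under the floor. RBFOX3 gave no fold above the floor and its groups overlapped, with a narrow pass of the test (adjusted p = 0.0482, edgeR) on 5 counts in 1 OE library, with the other at 0 like both EV libraries, and FEZ1, at 2 counts or fewer throughout, did not pass (adjusted p = 0.366, edgeR).

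In all, 5 of the 6 passed the test in the higher direction, 3 of them with that direction fixed. NPTX2, RBFOX3 and FEZ1 entered the test only through libraries of the other lines, and were not tested with BT549 fitted alone. Without the library BT549 OE replicate 1, 3 of the 6 were called, with NPTX2 at adjusted p = 0.068 and RBFOX3 at adjusted p = 1 (edgeR, the lone OE library being assumed to vary like the other groups). VSTM2L and PRICKLE1 were thus higher both with less TRMT112 (KD) and with more (OE), each against its own EV, in 3 lines. The KD values served to choose the genes and were not tested. BT549 differed from both KD lines in vector and selection.

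The order of the 6 groups differed from gene to gene. BEX1, FEZ1, NPTX2 and VSTM2L had their highest level in a SUM159 group, RBFOX3 in MDA-MB-231 KD and PRICKLE1 in BT549 OE. For VSTM2L and PRICKLE1 no neighbouring groups in that order overlapped. For BEX1 the ranges of BT549 OE and SUM159 KD overlapped, and below FEZ1 in SUM159 KD and RBFOX3 in MDA-MB-231 KD the remaining groups lay within a few counts of each other. MDA-MB-231 held no BEX1, FEZ1 or NPTX2 beyond 2 counts in any library. For these genes a fall could not be seen in that line at this depth, and no rise beyond 2 counts was seen.

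REST itself fell in SUM159 KD. It stood at 567 ± 14 in SUM159 EV and 423 ± 41.9 in KD (log2 fold change -0.43 ± 0.09, adjusted p = 0.000154, edgeR), whereas in MDA-MB-231 it stood at 330.0 ± 15.9 and 387 ± 17.0 and did not pass (adjusted p = 0.0535, edgeR, and 0.0346 with RLE size factors). In BT549 it did not pass either (adjusted p = 0.632, edgeR). The REST list holds REST, genes of its complex and genes that act on REST, such as BTRC and USP7. Of its 18 tested genes, 4 rose and 10 fell in SUM159 KD. In MDA-MB-231 KD 4 rose and 5 fell, and in BT549 OE 6 rose and 10 fell. The share that fell was 55.6% in SUM159 KD against 31.4% of all genes, 27.8% in MDA-MB-231 KD against 16.5%, and 55.6% in BT549 OE against 35%. The share that rose was 22.2% against 28.6%, 22.2% against 21.2%, and 33.3% against 35.6%. In MDA-MB-231 2 were called higher and 10 lower with library size only, where 14.3% of all genes were called higher and 24.7% lower. HDAC2, a histone deacetylase of the complex, fell by 0.65 on the log2 scale in SUM159 KD (adjusted p = 6.1e-13, edgeR), and CTDSPL, a phosphatase that acts with REST, rose by 0.72 (adjusted p = 8.19e-12, edgeR).

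Genes of the neuronal cytoskeleton and synapse were called in both directions. Of 32 tested, 6 rose and 3 fell in MDA-MB-231 KD, 10 rose and 8 fell in SUM159 KD, and 14 rose and 12 fell in BT549 OE. As shares these were 18.8% and 9.38%, 31.2% and 25%, and 43.8% and 37.5%. TUBB3, a neuronal tubulin, rose in both KD lines (0.35 ± 0.04 and 0.80 ± 0.04, adjusted p = 1.14e-07 and 2.99e-15, edgeR) and fell in BT549 OE by 0.97 (adjusted p = 3.73e-18, edgeR). STMN3, a regulator of microtubules, fell in SUM159 KD from 392 ± 21.6 to 56.6 ± 0.878 (-2.79 ± 0.10, adjusted p = 1.51e-16, edgeR). MAPT, the microtubule-binding protein tau, fell there from 156 ± 1.14 to 43.5 ± 1.85 (-1.84 ± 0.16, adjusted p = 9.52e-10, edgeR). Over all 8 lists 107 of 150 genes were tested. Of these, 28 rose and 18 fell in MDA-MB-231 KD (26.2% and 16.8%), 33 rose and 36 fell in SUM159 KD (30.8% and 33.6%), and 40 rose and 47 fell in BT549 OE (37.4% and 43.9%). Those shares are to be read beside the 21.2%, 16.5%, 28.6%, 31.4%, 35.6% and 35% of all genes, in the same order. With library size only, 18 of the 107 were called higher and 27 lower in MDA-MB-231 KD, and of all genes 14.3% and 24.7%. The median log2 fold change of the 107 was 0 in both KD lines and -0.09 in BT549, and that of all genes tested was 0, 0 and 0.02.

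**Figure D5:**
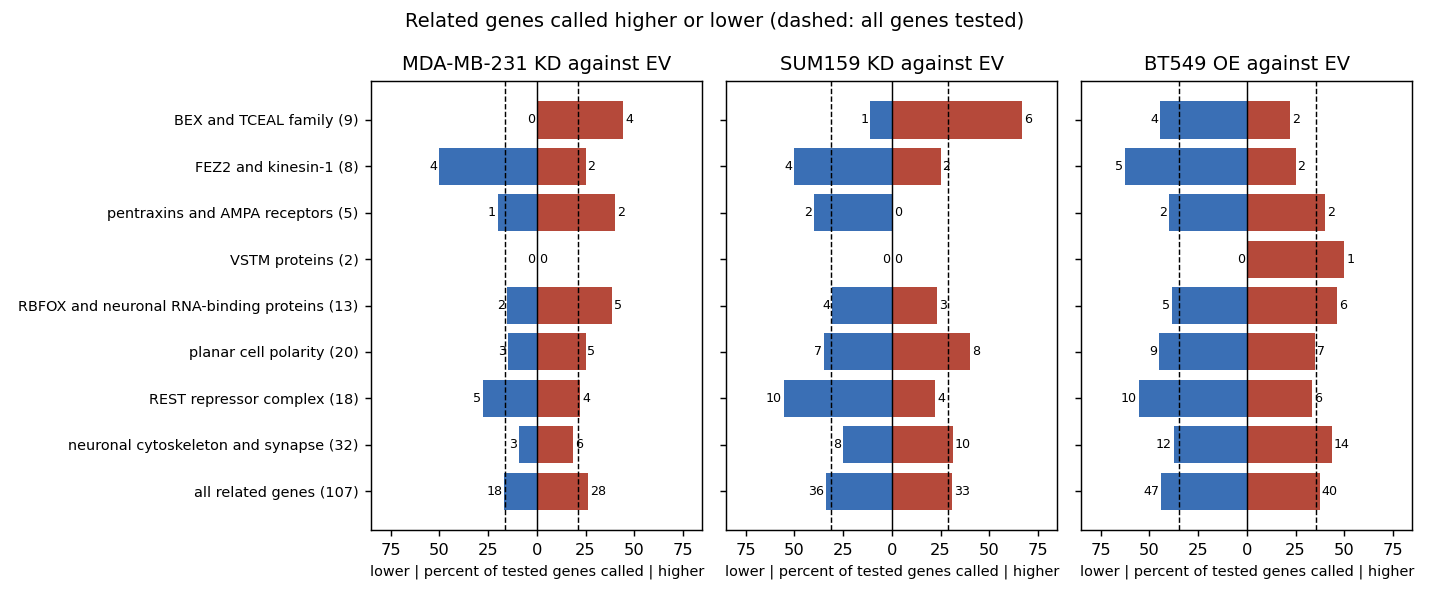
Percent of the tested genes of each list (y axis, number tested in parentheses) called higher (right, red) or lower (left, blue) in each contrast, with the number called beside each bar. Dashed lines are the shares over all genes tested, near which the bar of all 107 related genes lies in both KD lines.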

How the data were processed

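Polysome-associated RNA was measured in 12 libraries, and groups were taken from the sample labels. Per the methods and the submitters' processing notes, the authors used Trimmomatic for trimming, HISAT2 for alignment to GRCh38, SAMtools for removing duplicates, and Partek. Their methods name a stranded total RNA kit and the labels a poly(A) kit. Values in the deposited table are expected counts of Ensembl transcripts, not normalized by the authors, whose counting tool is not given in the sources used here. The 8 MDA-MB-231 and SUM159 columns, recorded as another unit because 5.08% of their rows hold a missing mark, otherwise hold the same expected counts, and marks were taken as 0.

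Transcripts (201932, of which 79.6% matched GENCODE 44 without version numbers) were summed per symbol with pandas 2.3.3 in Python 3.11.15 and rounded. Genes kept by filterByExpr were tested with edgeR 4.0.16 in R 4.3.3 after TMM scaling (quasi-likelihood, 1 model of 6 group means, 6 residual degrees of freedom, called at adjusted p under 0.05, Benjamini-Hochberg). A group whose libraries all had 3 counts or fewer gave a bound against 3 counts per library. Counting intervals (95%) were exact conditional binomial intervals from scipy 1.17.1. The script was tested on simulated data. The members and lists were chosen with earlier results of these data known, so those results are no independent support.

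Named were the 6 genes, TRMT112, their direct paralogs, REST, up to 3 called genes with the smallest p per list and contrast, and the 3 genes most like each member. NGFR, TCEAL8 and TCEAL9, where outside that rule, were named after their values were seen. Alternatives were RLE factors, DESeq2 1.42.0, library size, the filter left out or set to a mean of 50 counts, blocking on the replicate number, each line alone, marked transcripts left out, the most abundant transcript of each gene, and each library left out. Promoter windows came from RefSeq (GRCh38.p14). The sequences of the proteins are not used here. The lists were also counted under the other scalings, a step added after the values were seen.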

Additional observations from a re-analysis of the deposited data

Results flagged for a closer look

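Some tested genes had KD effects that differed between MDA-MB-231 and SUM159, by the difference of the log2 fold changes (MDA-MB-231 minus SUM159) in the same edgeR model. The knockdown of TRMT112 itself was deeper in MDA-MB-231, by -0.47 ± 0.06 (SE, adjusted p = 1.83e-07, edgeR). REST differed by 0.66 ± 0.13 (adjusted p = 0.000118, edgeR), being called lower in SUM159 only. Among the paralogs of the 6 genes, BEX3 differed by -0.32 ± 0.07 (adjusted p = 0.000575, edgeR), FEZ2 by -0.31 ± 0.06 (adjusted p = 0.000129, edgeR), NPTXR by 0.70 ± 0.25 (adjusted p = 0.0245, edgeR), RBFOX2 by 0.12 ± 0.04 (adjusted p = 0.0296, edgeR) and PRICKLE2 by 0.85 ± 0.19 (adjusted p = 0.000482, edgeR). BEX2, NPTX1 and PRICKLE3 were not shown to differ. The 6 genes were not tested, since they were chosen on these contrasts.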

How the results depend on the processing

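Over the alternatives run, each of the 6 genes kept its direction in the KD lines where a fold or bound is given, and TRMT112 kept its direction and call. All 6 also differed at least 2-fold in 1 KD line or the other. That is no support, since the genes were chosen for strong KD differences. For PRICKLE1 it rests on SUM159, whose EV libraries are at 0. The number of the 6 called higher in BT549 OE (5) was 3 with each cell line fitted alone, where NPTX2 and RBFOX3 did not pass the filter and FEZ1 was not tested, and 3 to 5 without 1 library. RBFOX3 lost its call in 9 alternatives, at log2 fold changes from 0 to 4.56. With library size only, 18 of the related genes were called higher and 27 lower in MDA-MB-231 KD instead of 28 and 18, so the balance turned, and 14.3% of all genes were called higher and 24.7% lower instead of 21.2% and 16.5%. With the replicate number as a block, 4 of the 6 genes were called higher in BT549 OE, RBFOX3 being lost (log2 fold change 4.54, adjusted p = 0.0554, edgeR), and no other call of the 6 genes changed. Same-numbered libraries did not deviate together (correlations between -0.044 and 0.032), so the numbers were not taken as pairs. The fitted log2 change of PRICKLE1 in SUM159, whose EV libraries are at 0, went from 6.77 to 6.24 with DESeq2 and that of RBFOX3 in MDA-MB-231 from 7.55 to 8.78 without MDA-MB-231 EV replicate 1. The cause of these shifts was not tested. Depth hides any fall of BEX1, FEZ1 and NPTX2 in MDA-MB-231, where they were at 2 counts or fewer.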

Other observations

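The genes whose log2 levels over the 12 libraries were most like those of each of the 6, among 12573 tested genes with a mean of at least 50 normalized counts, are given as a description. The libraries of a line or group share its cells, so the 12 points are not independent. For BEX1 they were PKNOX2 (Pearson r = 0.99), TSPAN7 and ZC3H12A, and for NPTX2 they were STAC2 (r = 1.00), KCNH2 and MAPKAPK3. FEZ1 was most like BID (r = 0.99), TAF9 and CENPA, and VSTM2L most like ZMYND19 (r = 0.99), FAIM and COX5A. For PRICKLE1 they were EMP2 (r = 0.99), FGFR3 and UBTD1. RBFOX3 had the lowest values, with SH3BP4 (r = 0.95), BCR and GPSM1. STAC2 ranged from 0 to 7573 normalized counts and EMP2 from 112 to 2173, while BID ranged only from 1728 to 4086.

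Genes within 500 kb of each of the 6 were counted after the values were seen. Around NPTX2, 7 of 9 tested neighbours were called higher in SUM159 KD and 0 lower (edgeR), with a median log2 fold change of 0.49. Around VSTM2L, 0 of 8 were called higher and 6 lower in the same contrast, with a median of -0.48, although VSTM2L itself was higher. Around FEZ1 2 of 10 were called higher and 6 lower (median -0.39), around BEX1 3 of 13 and 1 (median 0), around PRICKLE1 3 of 4 and 1 (median 0.31), and around RBFOX3 5 of 14 and 6 (median -0.03), all in SUM159 KD. Around RBFOX3, 7 of 14 were called higher and 2 lower in MDA-MB-231 KD, with a median of 0.16. The other 5 genes had 1 to 4 neighbours called higher and 0 to 4 lower in that contrast. Over all genes tested the shares were 28.6% higher and 31.4% lower in SUM159 KD and 21.2% and 16.5% in MDA-MB-231 KD.

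Large differences in BT549 were also seen in 2 genes of the lists. VSTM4, a relative of VSTM2L, had no count in either EV library and 944 ± 50.9 normalized counts in OE. Its direction, though not its size, was fixed as for BEX1. UCHL1, a ubiquitin hydrolase abundant in neurons, fell from 16658 ± 265 to 233 ± 12.3 (log2 fold change -6.16 ± 0.05, adjusted p = 8.91e-25, edgeR).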
